A study of Mus musculus with 12 samples.

Results

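The genotype difference in the ageing mouse heart was examined by setting the 3 Clock mutant ventricles of 21 months against the 3 wild-type ventricles of the same age, 6 of the 12 arrays in the series. The comparison covered all 3163 probe sets of the deposited table, 1908 for mature miRNAs (identifiers starting with MIMAT) and 1255 for their hairpin precursors (identifiers starting with MI and digits). Both groups were of the C57Bl/6J strain, and all hearts were taken at ZT 6, that is 6 hours after lights on, and snap frozen. The mutants were homozygous for the Clock delta 19 allele, a change in the germ line and so present in every cell of the animal, and the controls were wild type. The other 6 arrays, 3 of each genotype at 4 months, entered the model to estimate the spread of each probe set and gave the genotype difference at the younger age. The labels call the replicates biological without naming the animals, so each array was counted as 1 animal.

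CLOCK is a transcription factor that pairs with BMAL1 to drive genes with E-box elements, among them the Per and Cry genes whose products feed back to repress it. The delta 19 protein still dimerises and binds DNA but activates transcription poorly, which weakens the daily rhythm of clock output in tissues including the heart. MiRNAs are short RNAs that repress messenger RNAs through pairing of their seed. Mature forms are cut from hairpin precursors, so a probe set for a mature form and one for its hairpin read different stages of the same pathway.

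Values were on a scale taken here as log2, and each was relative to that probe set's own median over the 12 arrays. A value of 0 is therefore the middle of the series for that probe set and says nothing about how abundant the miRNA was, and levels of different miRNAs cannot be compared. The files and the tables used for names pair 0 of the 3163 identifiers with a miRNA name. No miRNA is named for that reason, no sequence is shown, and at most 2 identifiers higher and 2 lower in Clock are given. The heart identity of the tissue could not be checked against muscle miRNAs, nor could the part of red cells, vessels or leukocytes in any difference. In bulk tissue, fewer cells of a type and less RNA per cell cannot be told apart.

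No probe set differed between the old Clock and the old wild-type hearts after adjustment. In limma, 0 of 3163 passed a Benjamini-Hochberg adjusted p under 0.05 (0.0%), and the smallest adjusted p was 0.50. Before adjustment, 97 probe sets were higher in Clock (3.07%) and 83 lower (2.62%) at p under 0.05. These were 180 in all or 5.69%, against the 5% that this threshold allows without any difference. Only 30 (0.948%) had an unadjusted p under 0.01, 18 higher and 12 lower, and 3 had one under 0.001. Each tail held about what the threshold alone gives.

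Mature and precursor probe sets were also counted apart. Of the mature ones, 71 were higher (3.72%) and 55 lower (2.88%) at that threshold, 6.60% together. Of the precursors, 26 were higher (2.07%) and 28 lower (2.23%), 4.30% together. Fitted alone, the precursors gave 30 higher and 33 lower, 63 of 1255, and the mature probe sets 62 and 50, 112 of 1908. The gap between the 2 shares thus depends in part on the variance estimate that the joint fit shares between both kinds. Leaving out single arrays moved the precursor counts to 42 higher and 22 lower without Clock 21-month replicate 3, and to 16 and 28 without WT 21-month replicate 1. The smallest adjusted p of a precursor was 0.657. The test of whether the 2 shares differ was not made, since probe sets of the same miRNA are not independent.

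**Figure D1:**
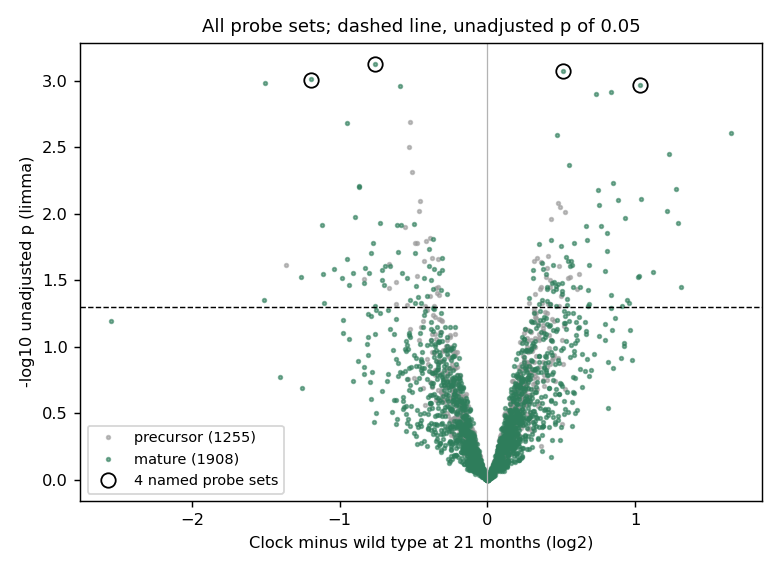
Genotype difference at 21 months (Clock minus wild type, log2, horizontal axis) against -log10 of the unadjusted limma p (vertical axis) for every probe set, mature in green and precursor in grey, with the 4 named probe sets ringed. The points form a near-symmetric cloud with 97 above the dashed line to the right and 83 to the left, and the widest differences are mature.

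The differences were small and balanced around 0. The median over all probe sets was 0.00865, with 5% of them below -0.44 and 5% above 0.44. In 1164 probe sets (36.8%) the group means lay within 0.1 of each other. The standard deviation of the difference was 0.326 over mature probe sets and 0.198 over precursors. Mature probe sets also varied more within each genotype. Their median standard deviation was 0.238 in old Clock and 0.214 in old wild-type hearts, against 0.175 and 0.173 for precursors. Whether genotype had a larger effect on mature forms than on precursors was not tested. The median 95% confidence half-width, with 3 arrays a group, was 0.454 for mature and 0.385 for precursor probe sets. These intervals take their spread from the arrays of both ages and are not adjusted for the number of probe sets. They therefore do not give the size of difference that the adjusted test could detect. The 95% interval lay entirely inside a 2-fold change for 1477 mature probe sets (77.4%) and for 1224 precursors (97.5%). Probe sets at background cannot be told from the rest in these counts, because the table keeps no signal level.

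The mature miRNA with the smallest p was lower in Clock. MIMAT0000679_st stood at 0.11, -0.09 and 0.56 in the 3 old Clock hearts and at 1.07, 0.81 and 0.99 in the 3 old wild-type hearts. The lowest wild-type heart was 0.246 above the highest Clock heart, so the groups did not overlap. The means were 0.19 ± 0.33 and 0.96 ± 0.13 (SD, n = 3 each), a difference of -0.76 (SE 0.17, 95% interval -1.13 to -0.395), or 1.69-fold lower in Clock (limma, adjusted p = 0.50). At 4 months all 6 hearts lay between -0.239 and 0.006, and the genotype difference was -0.003 (SE 0.17). The old wild-type hearts were thus above each of the other 9 hearts. Clock 21-month replicates 1 and 2 lay near the young hearts, and replicate 3 (0.56) lay nearer the old wild-type ones.

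MIMAT0028400_st had the wider difference of the 2 lower ones. Its values were 0.09, -0.38 and 0.31 in old Clock hearts against 1.33, 1.5 and 0.78 in old wild-type hearts, with a gap of 0.465 between the groups. The difference was -1.19 (SE 0.27, 95% interval -1.79 to -0.599), or 2.29-fold lower in Clock (limma, adjusted p = 0.50). Again the 3 old wild-type hearts were the highest of the 12. The young hearts differed by -0.451 (SE 0.27) in the same direction, with overlapping groups.

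Of the 2 named miRNAs that were higher in Clock, MIMAT0004529_st was the most even within its groups. The 3 old Clock hearts read 0.34, 0.33 and 0.36, and the old wild-type hearts -0.21, -0.28 and -0.03. The old Clock hearts were above all other 9 hearts, of which Clock 4-month replicate 1 was the highest at 0.091. The gap over the highest old wild-type heart was 0.354. The difference was 0.51 (SE 0.115, 95% interval 0.262 to 0.764), or 1.43-fold higher in Clock (limma, adjusted p = 0.50), against 0.118 (SE 0.115) at 4 months.

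MIMAT0004670_st was the other one with a higher mean in Clock. The old wild-type hearts read -1.49, -0.87 and -0.34, below all other 9 hearts, and the old Clock hearts read 0.15, -0.03 and 0.28. The spread of the wild-type group (SD 0.575) exceeded that of the Clock group (SD 0.152), and the wild-type hearts ranged over more than the distance between the group means. The difference was 1.03 (SE 0.24, 95% interval 0.512 to 1.56), or 2.05-fold higher in Clock (limma, adjusted p = 0.50). This SE also draws on the young hearts, with SDs of 0.192 in Clock and 0.0819 in wild type. From the 6 old arrays alone the adjusted p was 0.89 (limma). The difference fell to 0.74 when WT 21-month replicate 1 was left out and reached 1.31 when WT 21-month replicate 3 was.

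These 4 were picked for their small p at 21 months, so the separation of their groups at that age is a description. In 3 of them the old wild-type hearts stood apart from the other 9 hearts, and in MIMAT0004529_st the old Clock hearts did. The unadjusted p of each stayed under 0.05 in all 12 fits that left out 1 array, but these fits reuse the arrays on which the 4 were picked.

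**Figure D2:**
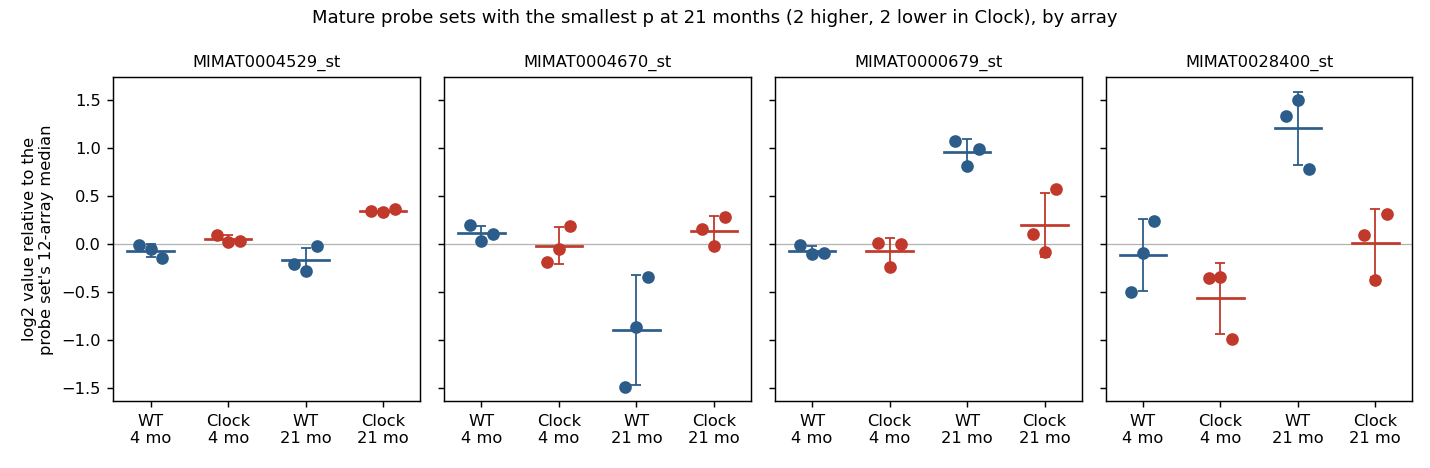
Value of each of the 12 arrays (log2, with the 12-array median of the probe set at 0, vertical axis) for the 4 named mature probe sets, by genotype and age, with points for single hearts, a bar for the group mean and whiskers for 1 SD. Old wild-type hearts stand apart in MIMAT0004670_st, MIMAT0000679_st and MIMAT0028400_st, and old Clock hearts in MIMAT0004529_st.

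The separation seen in the named miRNAs, with no overlap between the groups, was found in 334 probe sets. All 3 Clock hearts lay above all 3 wild-type hearts in 179 probe sets (5.66%) and below them in 155 (4.9%). Without any difference, 3 against 3 hearts separate in 5% of probe sets in each direction, so these shares are near that level. Of these 334, 127 also had an unadjusted p under 0.05. The remaining 53 of the 180 with such a p had overlapping groups.

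A mean difference over 2-fold was seen in 23 probe sets, 22 of them mature, with 11 higher and 12 lower in Clock. The largest difference in size was -2.55 and the largest positive difference 1.65, both in mature probe sets. The probe set at -2.55 did not reach an unadjusted limma p under 0.05, and 20 of the 23 did. Many of the 23 carried wide spread: in 19, the hearts of at least 1 group ranged over more than 1 log2 unit. The groups did not overlap in 14, beside 10.6% of all probe sets. The 23 were chosen for a wide mean difference, which favours such separation, so this count is a description. Leaving out each 21-month array in turn kept 5 of the 23 beyond 2-fold in all 6 fits, and 12 of them fell inside it without Clock 21-month replicate 2. The count itself moved from 11 higher and 12 lower to 19 and 7 without that array, and to 22 and 44 without Clock 21-month replicate 3.

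Among the 180 probe sets with an unadjusted p under 0.05, 36 kept such a p and their direction in all 12 fits that left out an array. They comprised 26 mature and 10 precursor probe sets, 21 higher and 15 lower in Clock. Their differences ran from 0.386 to 1.65 in size, with a median of 0.750 against 0.530 for the 180. These fits reuse the arrays on which the 180 were picked, and leaving out a young heart leaves the 21-month difference itself unchanged. Staying under the threshold in every fit favours larger differences, so the count of 36 and the medians are a description. The balance of directions over all probe sets turned with single hearts: 68 higher and 89 lower when WT 21-month replicate 1 was left out, 74 and 91 when WT 21-month replicate 3 was, but 113 and 67 without Clock 21-month replicate 1 and 98 and 55 without Clock 21-month replicate 2. No direction of the genotype difference as a whole held across these removals.

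**Figure D3:**
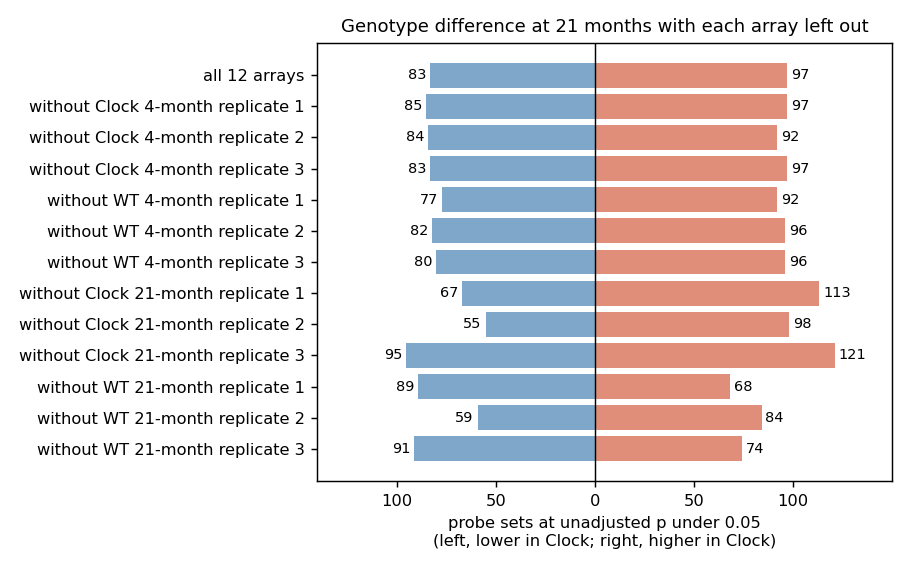
Number of probe sets at an unadjusted limma p under 0.05 for Clock against wild type at 21 months (horizontal axis, lower in Clock to the left and higher to the right) with all 12 arrays and with each array left out (vertical axis). Leaving out a 4-month array moves the bars little, and leaving out WT 21-month replicate 1 or 3 makes the left bar the longer.

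Old hearts of the same genotype lay about as far from each other as from hearts of the other genotype. The distance between 2 arrays was taken as the root mean square difference over the 3163 probe sets. It averaged 0.433 within wild type (0.416 to 0.452, 3 pairs), 0.494 within Clock (0.405 to 0.566, 3 pairs) and 0.470 between the genotypes (0.407 to 0.572, 9 pairs). Clock 21-month replicate 2 took part in each of the 5 longest distances, from 0.509 to 0.572. Without it the 6 distances between genotypes averaged 0.429, the 3 within wild type 0.433, and the single Clock pair stood at 0.405. The pairs share arrays, so these means carry no test.

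**Figure D4:**
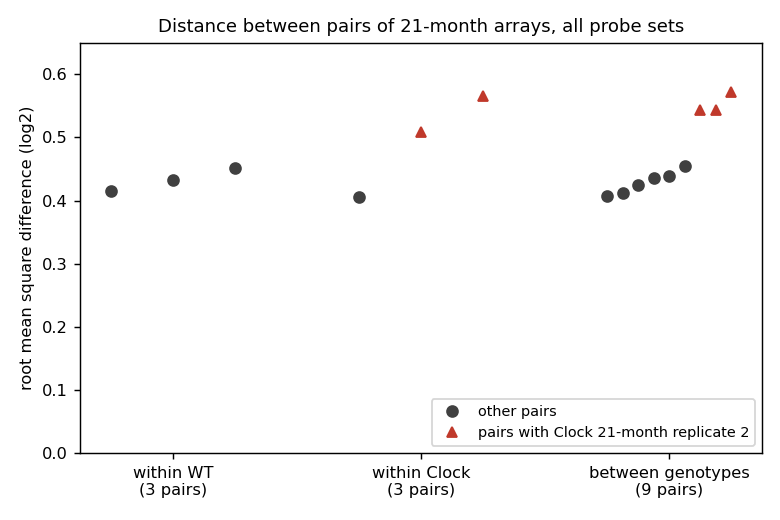
Root mean square difference between each pair of 21-month arrays (log2, vertical axis) for pairs within wild type, within Clock and between genotypes, with triangles for pairs that include Clock 21-month replicate 2. The circles span 0.405 to 0.456 in all 3 classes, and the 5 triangles lie between 0.509 and 0.572.

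The departure of Clock 21-month replicate 2 was strongest in the mature miRNAs with low accession numbers. MiRBase gives accession numbers in order of registration, so low numbers belong to miRNAs registered early. In the 554 mature probe sets numbered under 5000, its values had a standard deviation of 0.679, against 0.312 and 0.355 in the other Clock hearts and 0.313 to 0.366 in the wild-type hearts. In that band 56 of its values (10.1%) lay more than 1 log2 unit from the probe set's median, against 10 to 17 in the other 5 old hearts. Its standard deviation was 0.465 over the 497 probe sets numbered from 5000 to under 20000 and 0.421 over the 857 numbered 20000 and over, where WT 21-month replicate 2 was at 0.413.

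The other 2 Clock hearts resembled each other in the low band about as closely as wild-type hearts did. The median absolute difference between Clock replicates 1 and 3 was 0.193, and that between wild-type hearts was 0.191 to 0.200. Differences between Clock replicate 2 and those hearts had medians of 0.321 and 0.360. Its precursor values were less apart, with a standard deviation of 0.270 against 0.217 to 0.241 in the other 5 old hearts. RNA quality, extraction and hybridisation of single hearts are not recorded in the sources used here, and their part in this departure was not tested.

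**Figure D5:**
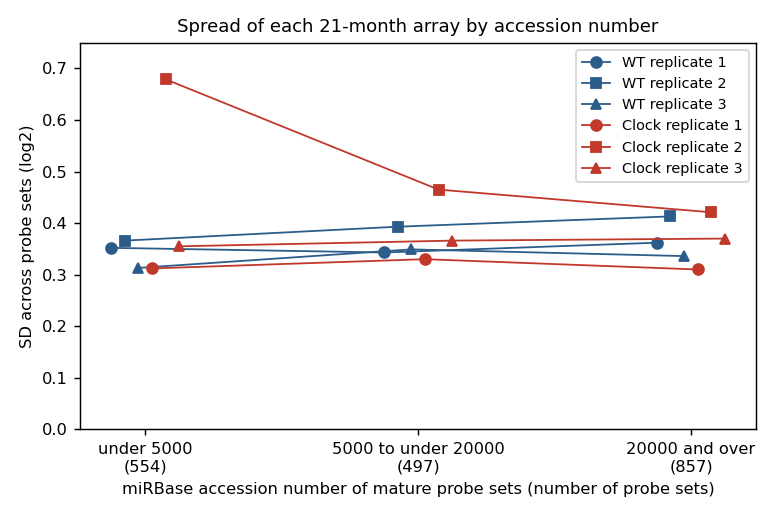
Standard deviation of the values of each 21-month array (log2, vertical axis) over mature probe sets in 3 bands of miRBase accession number (horizontal axis, number of probe sets in brackets), wild type in blue and Clock in red. Clock replicate 2 falls from 0.679 in the lowest band to 0.421 in the highest, and the other 5 arrays stay between 0.310 and 0.413.

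Early-registered mature miRNAs also held a larger share of small p-values. Under accession number 5000, 42 had a higher and 17 a lower mean in Clock with an unadjusted p under 0.05, or 10.6% of 554, beside 6.60% of all mature probe sets. The share was 5.43% in the band from 5000 to under 20000 (16 higher, 11 lower) and 4.67% from 20000 (13 higher, 27 lower). The lean to lower in the highest band rested on single hearts, with 21 higher and 15 lower without Clock 21-month replicate 2, 18 and 20 without Clock 21-month replicate 1, and 13 and 15 when WT 21-month replicate 2 was left out. With WT 21-month replicate 1 left out it was 8 and 39. In the middle band, leaving out Clock 21-month replicate 2 gave 19 and 5. Differences over 2-fold followed the same order only in part, with 14, 1 and 7 probe sets. When each array was left out, the low band held 31 to 45 higher and 11 to 22 lower, a total share from 7.76% (without WT 21-month replicate 2) to 12.1% (without Clock 21-month replicate 3). Without Clock 21-month replicate 2 it was 35 higher and 16 lower, 9.21%. The bands were set after the values were seen, none of these miRNAs passed the adjusted threshold, and the excess has no test of its own. MIMAT0028400_st lies in the highest band and the other 3 named probe sets in the lowest.

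Among precursors, the bands differed less. The share with an unadjusted p under 0.05 was 4.77% under accession number 5000 (12 higher, 8 lower), 4.29% from 5000 to under 20000 (5 and 11) and 3.89% from 20000 (9 and 9). The difference from the mature share of the same accession band was not tested.

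The genotype difference at 21 months was set beside that at 4 months, probe set by probe set. At the younger age 192 probe sets (6.07%) had an unadjusted p under 0.05. Both ages shared 23 of them, 12.8% of the 180 at 21 months and 12.0% of the 192 at 4 months, 16 in the same direction and 7 in opposite directions. Of the 180, 106 (58.9%) had the same sign at 4 months, beside 52.3% of all probe sets. Their median difference in size was 0.530 at 21 months, at which they were chosen, and 0.191 at 4 months, where the median over all probe sets was 0.144. The ages share no array but share the estimate of spread.

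Whether the genotype difference changed with age was tested as an interaction, and 0 of 3163 probe sets passed (limma, smallest adjusted p = 0.626). Unadjusted, 141 (4.46%) had p under 0.05, 75 with a Clock minus wild-type difference that was greater at 21 months and 66 with a smaller one. MIMAT0004670_st had an interaction of 1.16 (SE 0.34) and MIMAT0000679_st of -0.76 (SE 0.24), both at an adjusted p of 0.942 in limma. The interactions of MIMAT0004529_st (0.395, SE 0.16) and MIMAT0028400_st (-0.744, SE 0.385) had the same adjusted p. No genotype difference was thus shown to be particular to 21 months.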

How the data were processed

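The 12 arrays came from ventricles, with miRNeasy RNA and biotin labelling by an Affymetrix procedure per the labels' protocols. The deposited values were taken as log2 and are centred, with a row median of 0 within 1e-06 in all 3163 rows; the sources used here do not give the log base, background correction or normalization. No value was missing. One limma 3.58.1 model (R 4.3.3) held 1 mean for each group and covered all 12 arrays and 3163 probe sets (8 residual and 3.44 prior degrees of freedom), and p-values were adjusted over the whole table. The script was tested on simulated data. Members, lists and tests were chosen with earlier results of these data known. The rule for named miRNAs, without names, left the 2 higher and 2 lower mature probe sets with the smallest p. The 9 lists of heart, fibrosis, ageing, clock and other miRNAs, and the cell type markers, could not be evaluated because no identifier has a name. A filter on signal was not possible on centred values. Precision is limited by 3 arrays per group. Alternatives were quantile normalization, centring of arrays, array weights, the replicate block, 6 arrays alone, mature or precursor probe sets alone, the more variable probe sets, a threshold of 0.10, a robust variance estimate and each array left out. Accession bands were added after seeing the data.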

Additional observations from a re-analysis of the deposited data

How the results depend on the processing

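The count of 0 probe sets for Clock against wild type at 21 months was 0 in all 22 alternatives, and so was that for the interaction in all 21. The smallest adjusted p at 21 months ranged from 0.0972 (without Clock 21-month replicate 2) to 0.969 (without WT 21-month replicate 2). The 4 named differences kept their sign, and none passed, in each alternative that included them. At an unadjusted p under 0.05, the 97 higher and 83 lower became 89 and 88 after quantile normalization, 86 and 85 once every array was centred on its own median, and 111 and 88 with array weights. Mature probe sets fitted alone gave 62 and 50, against 71 and 55 in the joint fit. Precursors gave 30 and 33, against 26 and 28. Each probe set has the same difference in both fits. Only the variance estimate towards which limma draws every probe set differs between them. The replicate number as a block gave 87 and 81, with 0 passing. Deviations of same-numbered old hearts correlated at -0.035, -0.017 and -0.001 across probe sets, and those of same-numbered young hearts at 0.091, 0.059 and -0.074. Differently numbered young hearts ran from -0.163 to 0.115. These values show no shared shift by number but cannot exclude that the hearts were paired. In the low accession band, the 17 lower became 11 without Clock 21-month replicate 1 or WT 21-month replicate 2. Signal over background is unknown, so no miRNA could be set apart as undetected.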

Other observations

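Within the mature miRNAs of low accession number, the pattern was similar in the earliest. Of the 204 probe sets numbered under 1000, 16 were higher and 8 lower in Clock at 21 months at an unadjusted limma p under 0.05 (11.8%), and of the 350 numbered 1000 to under 5000, 26 and 9. At 4 months the same bands held 4 higher and 13 lower (8.33%) and 13 higher and 11 lower (6.86%). The share of all mature probe sets at that age was 6.60%. For the interaction, the 554 probe sets under 5000 held 31 with a Clock minus wild-type difference greater at 21 months and 5 with a smaller one. Their share was 6.50%, beside 4.51% of all mature probe sets, and 0 passed adjustment. The interaction reuses the arrays of both ages, so these counts are not separate evidence.

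The Clock 21-month hearts had a larger standard deviation than the wild-type hearts of that age in 1675 of 3163 probe sets (53.0%), near an even split. In the low accession band the median standard deviation was 0.258 in Clock and 0.170 in wild type, while in the highest band it was 0.231 and 0.239. The low-band gap went with Clock replicate 2. There the median absolute difference was 0.193 between Clock replicates 1 and 3 and 0.191 to 0.200 between wild-type hearts. Pairs of Clock hearts with replicate 2 stood at 0.321 and 0.360. Over all probe sets, Clock replicate 2 was the farthest of the 3 Clock hearts from their median in 1288 (40.7%), against 27.1% for replicate 1 and 32.2% for replicate 3.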
